A study of Camelus dromedarius with 4 samples.

Results

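The supraoptic nucleus of the dromedary camel makes and exports large amounts of peptide hormone, and the genes described here encode the machinery through which such cargo enters the endoplasmic reticulum (ER) and leaves it for the Golgi. They were chosen by symbol alone: the SEC genes of the translocon, the signal peptidase and the COPII coat, the signal recognition particle (SRP), the TRAP subunits SSR1 to SSR4, the signal peptidase subunits (SPCS), the protein disulphide isomerases (PDIA), the TMED cargo receptors, the COPI coat, and XBP1, ATF6 and ERN1. The rule found 62 of the 18152 gene symbols in the season table. Season means were given for 59 of them (all but COPB1, SRP19 and TMED11), and 58 reached a mean of 10 normalized reads in summer or winter. SEC61B was the one below that limit. RNA came from the supraoptic nucleus of healthy adult male dromedaries of the Tergui breed, aged 6 to 10 years and hydrated, slaughtered in winter (2 libraries) or in summer (2 libraries). The animals of each season came from a different slaughter site, so season and site cannot be told apart. No treatment or genetic change was applied. Each season was represented by 2 camels.

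A secretory protein is recognised while it is being translated. SRP binds the emerging signal sequence and docks the ribosome at the ER, the SEC61 channel passes the chain through the membrane, SEC62 and SEC63 assist chains that engage the channel late, the TRAP complex assists in translocation, and the signal peptidase removes the signal sequence. Disulphide isomerases then form and reshuffle the disulphide bonds on which neurophysin, the carrier domain of the vasopressin and oxytocin precursors, depends. COPII vesicles carry folded cargo forward, COPI vesicles return escaped proteins, and TMED proteins select cargo for both. ERN1 and ATF6 sense unfolded protein, and spliced XBP1 mRNA encodes a factor that raises transcription of much of this machinery.

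The table gives 1 mean per season, in reads divided by the size factor of each library. Because such a mean is a sum of whole reads with a fixed worth in each library, the reads of both libraries could be solved from it, with a single solution in both seasons for 18 of the 58 members. For most of the others the summer mean had 1 solution and the winter mean 2 or 3. The libraries are called A and B in each season, A having the larger size factor (1.33 and 0.946 in winter, 0.922 and 0.877 in summer), and all values below are normalized reads unless called reads. Counts were not divided by gene length, so levels are compared between seasons and not between genes. In the separate count files 4379162 to 6902037 reads lay on gene models per library. Of the markers of the nucleus, vasopressin (listed as PUTATIVE_AVP) had a mean of 11822 in summer and 2560 in winter, and oxytocin 592 in summer and 621 in winter. Glial and pituitary genes were also present, among them GFAP of astrocytes and GH1 of the anterior pituitary. Summed marker means in summer and winter were 1030 and 906 for 6 magnocellular genes other than vasopressin, 652 and 765 for 4 neuronal genes, and 25517 and 14808 for 5 astrocyte genes (nearly all GFAP). They were 5501 and 4019 for 5 microglial genes, 800 and 843 for 5 endothelial genes and 1999 and 2085 for 4 pituitary genes. The pituitary sum joins opposite directions, with 2 of the 4 genes higher in each season. POMC had 1294 in summer and 738 in winter, and GH1 464 and 1132. Other sums join opposite directions too. Winter was the higher in 3 of 4 neuronal genes, while GAD1 had 235 in summer and 178 in winter. It was the higher in 2 of 5 astrocyte, 2 of 5 endothelial and 2 of 6 magnocellular genes. Most of the magnocellular sum was oxytocin, and PDYN had 127 in summer and 35.9 in winter. Most of the microglial sum was C1QB (3476 and 2278), and 1 of the 5 genes, CSF1R, was higher in winter (56.2 and 106). The oligodendrocyte genes MBP and MAG had 4571 and 7277, and 1028 and 1657. Season means were given for only 1 of 3 ependymal and choroid plexus genes (FOXJ1) and 2 of 4 B lineage genes. Each of these 2 sets summed to under 13 in both seasons, and so few entries do not show whether such cells were present. In such bulk tissue fewer cells of a type and less RNA per cell cannot be told apart, and the part of cell composition in the values below was not tested.

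The question put to these genes was whether their expression in the supraoptic nucleus differed between winter and summer. No member passed the threshold of the comparison. When the recovered reads were tested with edgeR (quasi-likelihood), 0 of the 18 members with a single solution had an unadjusted p under 0.05, and their lowest p was 0.153, for SEC61G (adjusted p = 0.981). Among all 7654 symbols in that fit, 1.99% had an unadjusted p under 0.05, 1.67% also differed by more than 2-fold, and 0 passed an adjusted p of 0.05. The exact test and DESeq2 each gave 1 such symbol, and none of the tests called a member. A further 38 members with several solutions were added to the fit with each solution in turn, and their lowest p in any solution was 0.171, for SEC61A1. COPA and SRP14, with 34 to 55 solutions a season, were not tested. These p-values do not show that the seasons are alike, since with 2 libraries a season the standard error of a log2 fold change was 0.33 to 1.07 among the 18 members. The median fitted log2 fold change of all 7654 symbols was -0.11, so single-solution symbols as a whole lay toward summer.

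By season mean, 38 of the 58 members were higher in summer and 20 in winter, that is 65.5% higher in summer, beside 53.8% of all 13811 symbols past the same limit. The median log2 ratio, winter over summer, was -0.10 for the members and -0.036 for all symbols. Season means lay more than 2-fold apart for 4 members (6.90%), beside 7.26% of all symbols. The 4 (COPZ2, TMED4, PDIA5 and SEC16B) were all higher in summer, as were 4.53% of all symbols, and 0 were higher in winter, as were 2.72%. COPZ2 (10.1 in summer, 3.17 in winter) and TMED4 (20.9 and 8.15) reached the limit of 10 only in summer, where they were high. Their direction is therefore partly set by the limit, and 2 members remained where both seasons had to reach it. Means lay more than 1.5-fold apart for 6 members (10.3%), beside 22.3%. SEC61G and TMED1 are the others, and all 6 had means under 50. Of the 49 members that reached a mean of 50, 0 lay more than 1.5-fold apart, beside 14.6% of all symbols at that level (2.77% more than 2-fold). Of the 44 that reached 100, 0 did, beside 11.7% (1.7% more than 2-fold). Over the 49, log2 ratios ran from -0.52 (PDIA6) to 0.56 (SEC61A1). Next to the 2-fold limit, SEC61G at -0.99 and TMED1 at 0.96 lay just within it, and SEC16B and PDIA5, both at -1.16, just beyond.

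**Figure D1:**
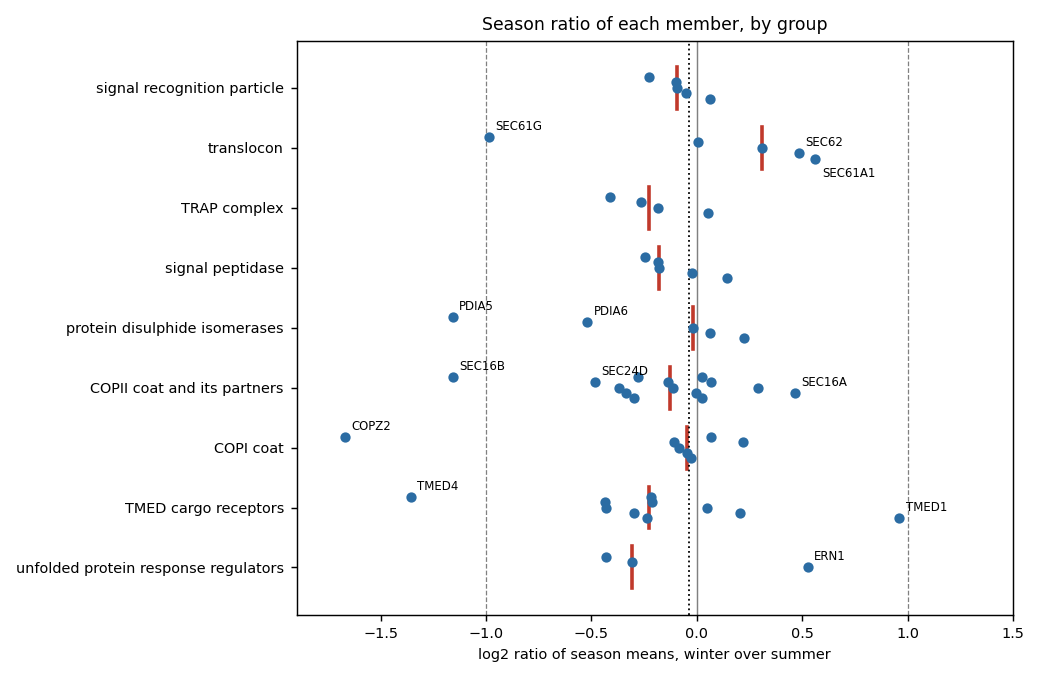
Log2 ratio of the authors' season means, winter over summer (x axis), for each of the 58 members (points) in 9 groups (rows), with the group median (red bar), the median of all symbols (dotted line at -0.036) and the 2-fold limits (dashed lines). The median of the translocon genes lies at 0.31, to the right of 0, and those of the other groups lie between -0.31 and -0.016.

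For targeting to the ER, the 5 SRP genes with means had log2 ratios between -0.23 and 0.063. SRP14, which with SRP9 forms the domain that pauses translation, had the authors' means of 1026 in summer and 1072 in winter. SRP54, which binds the signal sequence, had 449 and 434, and the core subunits SRP68 and SRP72 had 385 and 329, and 377 and 353. SRP9 had 90.6 and 104 in the winter libraries, against 146 and 61.6 in summer libraries A and B. The summer libraries thus lay on either side of both winter libraries. The log2 fold change of SRP9 was 0.66 without summer library A and -0.59 without summer library B.

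The translocon genes were the group whose median was higher in winter (0.31 on the log2 scale), with 4 of the 5 tested genes above 0. SEC61A1, the pore-forming subunit, had 172 and 186 in the summer libraries and a winter mean 1.48 times the summer mean. Its winter mean of 265 has 3 solutions, 281 and 249, 141 and 388, or 1.51 and 528 in libraries A and B, and the first alone puts winter wholly above summer. Under that solution its log2 fold change was 0.56 with a standard error of 0.37, and the adjusted p from edgeR was 0.989. SEC62 and SEC63, which act together at the channel, had winter means 1.40 and 1.24 times their summer means. The summer libraries of SEC63 held 510 and 413, and 1 of its 3 winter solutions, 601 and 543, lies above both. SEC62 has 8 combinations of solutions, of which 2 place winter above summer and 6 overlap. A joint entry for SEC61A and SEC61A2 had means of 721 in summer and 724 in winter. The 2 alpha subunits are close paralogues, reads can be shared between them, and both entries are therefore uncertain.

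The small translocon subunits went the other way or were barely counted. SEC61G, the gamma subunit, had 22.6 and 14.8 in winter, against 43.4 and 30.8 in summer. The seasons did not overlap, with a log2 fold change of -0.96 and a standard error of 0.60. With each library left out in turn it lay between -1.32 and -0.70. SEC61B, the beta subunit, was counted 7 and 6 times in winter, against 0 and 3 times in summer. Its summer level is at the floor of 3 counts, and no fold is given.

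Of the other proteins of the translocation site, the TRAP genes, whose products associate with the SEC61 channel, had a median of -0.23 and the signal peptidase genes one of -0.18. SSR3 had a log2 ratio of 0.053. SSR2 had means of 302 in summer and 251 in winter, SSR1 302 and 266, and SSR4 232 and 175. The summer libraries of SSR4 held 214 and 251, and its 2 winter solutions are 171 and 179, which lie below both, or 310 and 39.1, which do not. Among the signal peptidase genes, the catalytic subunit SEC11A had means of 308 and 271, SPCS2 276 and 244, and SPCS1 81.9 and 80.5. The other catalytic subunit, SEC11C, had 46.0 and 64.5 in winter, against 72.7 and 27.4 in summer. Its log2 fold change of 0.13 became 1.01 without summer library A, -0.40 without summer library B and -0.12 without winter library B.

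The protein disulphide isomerases had a median of -0.016, which became 0.020 when the ratios were centred on the median of all symbols. PDIA3, which acts on glycoproteins with calnexin and calreticulin, had means of 666 in summer and 658 in winter, and PDIA4 had 401 and 420. PDIA6 had 502 and 332 in the summer libraries and a winter mean of 291, 1.43 times lower than the summer mean. Of its 3 winter solutions, 307 and 274 lie below both summer libraries, while 168 and 414, or 27.9 and 553, do not, and its lowest p in any solution was 0.318. PDIA2 had 52.1 and 154 in the summer libraries, a wider gap than that between its season means of 103 and 120. PDIA5 had 4.53 and 19.0 in winter, against 18.4 and 34.2 in summer. The winter and summer libraries of PDIA5 overlapped narrowly, its log2 fold change was -1.25 with a standard error of 0.85, and it lay between -2.50 (without winter library B) and -0.46 (without winter library A).

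Among the 14 genes of the COPII coat and its partners, 9 were higher in summer and 5 in winter. SEC16A, the scaffold of ER exit sites, had the largest ratio toward winter, with means of 568 in summer and 783 in winter. Of its 6 combinations of solutions 3 put winter wholly above summer, and its unadjusted p lay between 0.367 and 0.720. SEC23A, of the inner coat, had means of 587 and 464, and SEC24B, which binds cargo, 420 and 341. The 4 SEC24 paralogues did not share a direction. SEC24C had a log2 ratio of 0.29, SEC24A one of -0.0059, SEC24B one of -0.30 and SEC24D one of -0.48. SEC24D had 196 and 184 in the summer libraries, and its 2 winter solutions, 118 and 153 or 258 and 13.7, both left its adjusted p from edgeR at 0.988 or more. SEC31A, of the outer coat, had means of 377 and 293.

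SEC16B, the shorter paralogue of the scaffold, had the largest ratio of the COPII genes and, of the 46 members with a single summer solution, the widest gap between the summer libraries (log2 2.10). It had 12.1 and 9.52 in winter, against 39.0 and 9.12 in summer, so that summer library A alone lay apart from the other 3. The log2 fold change of -1.14 (standard error 0.87) became 0.25 without that library and -1.83 without summer library B. The last of these had an unadjusted p of 0.0106, but without summer library B 14.6% of all symbols passed the 2-fold rule, and the adjusted p was 0.139.

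The COPI coat genes had a median of -0.048, and all but COPZ2 lay between -0.11 and 0.22. COPA, the alpha subunit of the coat, had means of 1090 and 1029, and the paralogous gamma subunits COPG1 and COPG2 had 799 and 930, and 851 and 790, in summer and winter. COPZ2, a zeta paralogue, had the lowest ratio of all members (log2 -1.67), on 7 and 1 reads in winter, against 6 and 12 in summer. Normalized, these are 5.28 and 1.06, and 6.51 and 13.7, which do not overlap. Its fitted log2 fold change was -1.50 with a standard error of 1.07. It was -3.09 without winter library A and -0.91 without winter library B, was not fitted without summer library B, and passed the 2-fold rule without summer library A (-1.96, unadjusted p = 0.0329, adjusted p = 0.246), where 15.4% of all symbols did. PDIA5 was the other member past the rule in that setting.

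**Figure D2:**
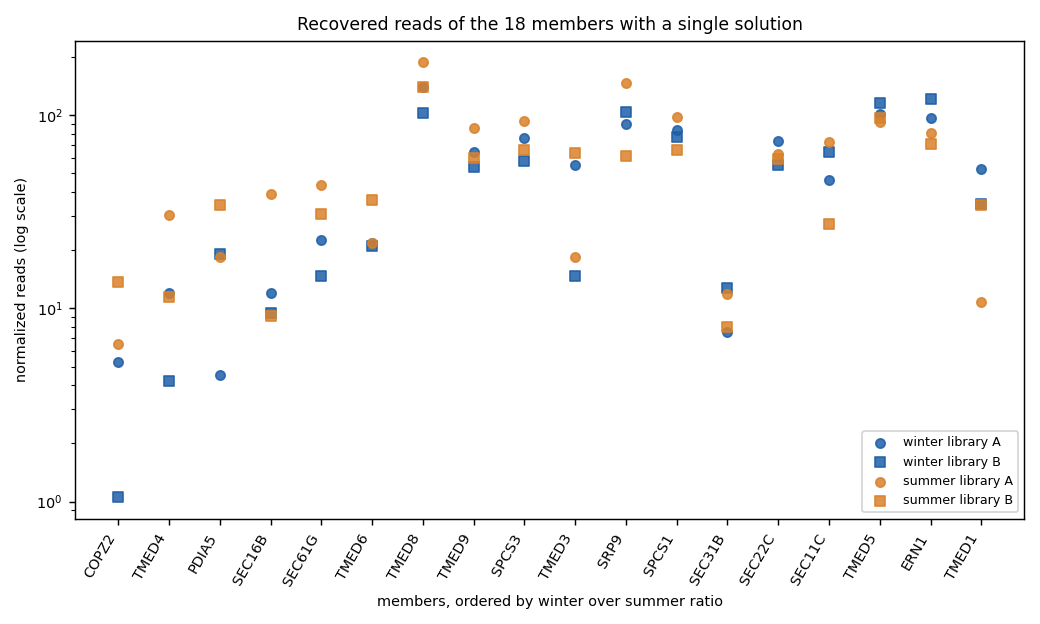
Normalized reads recovered for the 18 members with a single solution (x axis, ordered by the season ratio) on a log scale, with winter libraries in blue, summer libraries in orange, library A as circles and library B as squares. In most members the colours are mixed, and in 5 (COPZ2, SEC61G, TMED5, ERN1 and TMED1) both libraries of a season lie above both of the other.

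Most TMED proteins belong to the p24 family of cargo receptors, and 7 of the 10 genes measured under that symbol were higher in summer. TMED10 had means of 538 and 464, TMED2 359 and 309, and TMED8 164 and 121, log2 ratios of -0.21, -0.22 and -0.43. TMED8 had 140.4 and 103 in the winter libraries, against 188 and 140.2 in summer, which overlap by less than 1 normalized read. The 2 extreme ratios were at TMED1 and TMED4. TMED1 had 52.8 and 34.9 in winter, against 10.8 and 34.2 in summer, so that the seasons did not overlap although winter library B and summer library B differed by less than 1 normalized read. Its log2 fold change of 0.98 (standard error 0.66) became 0.37 without summer library A and 2.01 without summer library B. TMED4 had 12.1 and 4.23 in winter, against 30.4 and 11.4 in summer, a log2 fold change of -1.27 (standard error 0.88) that ran from -2.27 without winter library A to -0.42 without summer library A. Without summer library B, which leaves 1 summer library, the log2 fold change of TMED4 was -1.82. TMED5 had 102 and 116 in winter, against 92.2 and 96.9 in summer, apart but by a log2 fold change of only 0.20. TMED3 had 55.1 and 14.8 in winter, against 18.4 and 63.8 in summer, a wide spread within each season beside a log2 ratio of means of -0.24.

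The 3 regulators of the unfolded protein response did not share a direction. ERN1, the kinase and nuclease that splices XBP1 mRNA, had 97.3 and 122 in winter, against 81.3 and 70.7 in summer. The seasons did not overlap. Its log2 fold change of 0.52 had a standard error of 0.35 (adjusted p = 0.981 from edgeR) and kept its sign with each library left out, between 0.36 and 0.68. XBP1 had means of 500 in summer and 370 in winter and ATF6 783 and 633, ratios of -0.43 and -0.31. For XBP1, 1 of the 6 combinations of solutions puts summer wholly above winter, 596 and 403 against 399 and 342. None of the 9 combinations for ATF6 separates the seasons. These counts do not distinguish spliced from unspliced XBP1.

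**Figure D3:**
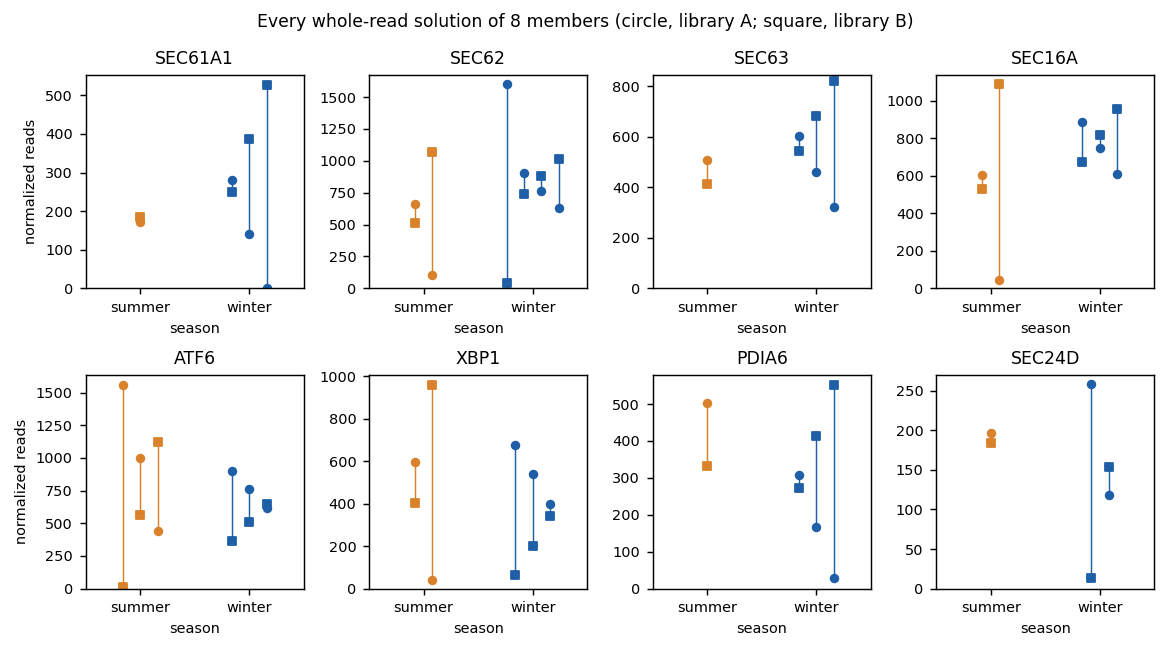
Every whole-read solution for 8 members with several, as normalized reads (y axis) in summer (orange) and winter (blue), where each vertical line joins library A (circle) and library B (square) of 1 solution. Whether the seasons overlap depends on the solution taken in SEC61A1, SEC62, SEC63, SEC16A, XBP1, PDIA6 and SEC24D, while in ATF6 they overlap in all.

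Whether the libraries of the 2 seasons overlapped could be settled for 42 of the 58 members. In 37 members they overlapped in every solution, and in 5 they lay apart, 3 with winter higher (ERN1, TMED1 and TMED5) and 2 with summer higher (COPZ2 and SEC61G). These 5 are 27.8% of the 18 members with a single solution, beside 30.5% of all symbols with one (13.3% with winter higher and 17.2% with summer higher). In the other 16 the answer depended on the solution. COPZ2 entered the count through its summer mean alone (10.1, against 3.17 in winter).

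The libraries of the summer animals could be compared in more members, because 46 have a single summer solution. The median absolute log2 difference between the summer libraries was 0.43 over these 46, against a median absolute log2 season ratio of 0.23, and in 29 of the 46 (63.0%) the summer libraries differed by more than the season means did. Over all 11856 symbols with a single summer solution these medians were 0.49 and 0.30 and the share was 66.2%, so the members' share lay near that of all symbols. Summer library A was the higher in 33 of 46 members (71.7%), beside 46.5% of all symbols. Among the 30 members with a summer mean of at least 100 it was the higher in 23 (76.7%), beside 56.7% of all symbols at that level. The groups did not share this. Summer library A was the higher in 4 of 4 SRP genes and 5 of 5 signal peptidase genes, at log2 differences of 0.28 to 1.41, and in 11 of 12 COPII genes. It was the higher in 6 of 10 TMED, 2 of 3 translocon, 2 of 4 TRAP and 2 of 4 disulphide isomerase genes, but in 0 of 3 COPI genes. These 3 are COPE, COPZ1 and COPZ2 (6 and 12 reads), of 7 COPI genes with means. Markers of cell types also differed between these libraries, in both directions. Summer library A was the higher in 0 of 4 neuronal genes (73 reads of SNAP25 in A and 175 in B) and 0 of 4 astrocyte genes (102 and 301 of GJA1), but in 2 of 2 microglial genes (136 and 76 of AIF1), in 3 of 5 endothelial genes (388 and 275 of VWF) and in the oligodendrocyte gene MOBP (181 and 131). It was the higher in 3 of 5 magnocellular genes (118 and 111 of PDYN) and in 1 of 2 pituitary genes (275 and 112 of PRL). Which summer library is the higher depends on their scaling. The recovered factors put A above B (0.906 and 0.862 when scaled to a mean of 1). TMM, RLE, upper quartile and total-count factors put A below B (0.831 and 0.951 for TMM), which raises A against B. The counts of the higher summer library were not repeated with these factors. The part of cell composition in the difference between the summer libraries was not tested.

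**Figure D4:**
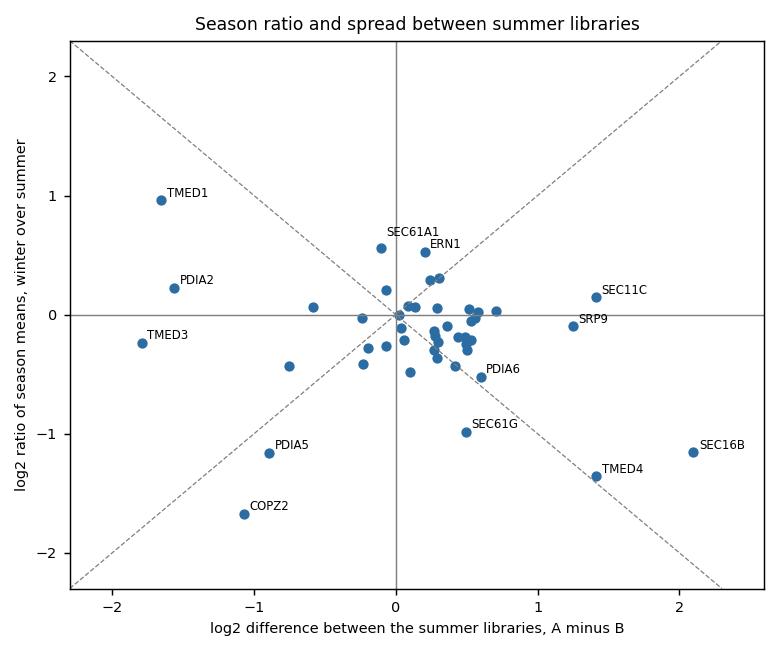
Log2 ratio of season means, winter over summer (y axis), against the log2 difference between summer libraries A and B (x axis) for the 46 members with a single summer solution. Points left and right of the dashed diagonals, 29 of the 46, differ more between the summer libraries than between the seasons, and most points lie to the right of 0.

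The remaining genes of the pathway were taken from 3 lists of chaperones, oligosaccharyltransferase subunits and vesicle traffic genes. Of their 98 genes past the limit on the mean, 63 were higher in summer and 35 in winter, beside 53.8% of all symbols higher in summer. Their median log2 ratio was -0.12, beside -0.036 for all symbols. Of the 40 in the fit, 0 passed the 2-fold rule, beside 1.67% of all symbols. HSPA5, the main ER chaperone and a sensitive reporter of ER stress, had means of 790 in summer and 701 in winter, and HSP90B1 had 1611 and 1382. CREB3L1, an ER-anchored transcription factor known from work on vasopressin neurons, was counted 18 and 9 times in winter, against 1 and 13 times in summer. Season means lay more than 2-fold apart for 2 of the 98, beside 7.26% of all symbols. DERL1, of the channel that returns misfolded proteins to the cytosol, was counted 33 and 32 times in winter, against 9 and 15 times in summer (log2 fold change 1.11, standard error 0.69). CNIH4, a cargo receptor of the early secretory pathway, was counted 2 and 4 times in winter, against 15 and 5 times in summer (log2 ratio of means -1.94). The adjusted p of both was 0.981 from edgeR.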

How the data were processed

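Total RNA depleted of ribosomal RNA was sequenced in 100-base pairs in 2 winter and 2 summer libraries. Per the labels and the study, the authors aligned the reads with TopHat to their own dromedary assembly and deposited HTSeq counts per gene model, used here for depth only since the models carry no symbols. Versions are not given in the sources used here. In the season table the authors deposited a signal per symbol, the mean over a season of counts divided by DESeq size factors. Its 2 further columns, the fold change and p-value of the authors, were not used. Whole reads were solved from the means, given to 6 significant digits. Winter means above about 100 mostly have several solutions, so fitted symbols favour low winter means. Recovered reads do not name the replicate, and library A or B is not a replicate number.

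Symbols reaching a mean of 10 in summer or winter entered edgeR's quasi-likelihood test (version 4.0.16 under R 4.3.3, glmQLFit with legacy set to FALSE), scaled by the recovered size factors, with Benjamini-Hochberg adjustment. The 2-fold rule was that of the study, an unadjusted p under 0.05 and more than 2-fold. Alternatives were DESeq2 1.42.0, limma-voom from limma 3.58.1, edgeR's exact test, other scalings and filters, and leaving out each library. The test of each solution and the scaling of the overlap counts were added after the data were examined. The design assumed that a test on the count files might be possible, and it was not. The members, lists and rules were chosen with earlier results of these data known. Named were members past the rule, the 5 largest ratios each way, the 3 highest means of each group, the PDIA genes, XBP1, ATF6 and ERN1, and others given for their spread, chosen after their values were seen. Of the 62 symbols, 56 matched the RefSeq table. Scripts were tested on simulated data, and figures drawn with matplotlib 3.10.9.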

Additional observations from a re-analysis of the deposited data

How the results depend on the processing

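The count of members past the 2-fold rule was 0 under every test, scaling, filter and solution run, and 0 to 3 with each library left out in turn. It was 0 past an adjusted p of 0.05 in all of them. With 3 libraries the lone library of a season is assumed to vary like the others. The 4 members more than 2-fold apart became 2 where both seasons had to reach a mean of 10, 0 where either had to reach 50, and 0 with a pseudocount of 10, which shrinks low genes by construction. With each library left out it was 2 to 5 over the 18 members with recovered reads, 4 of which lay 2-fold apart with all libraries. Their median log2 ratio, -0.24 with all libraries, ran from -0.45 without winter library A to 0.068 without summer library A. Members apart in every solution numbered 5 to 7 across scalings. With the recovered factors the share was 27.8% of the 18 members with a single solution, beside 30.5% of all symbols. With TMM or RLE factors it was 38.9% of the 18. The share over all symbols was not counted with those factors, so the higher number has no background to be read against. Group medians kept their sign under the filters, pseudocounts and scalings run, except that of the disulphide isomerases, which was 0.024 among genes reaching a mean of 50 and 0.020 when centred. Over all 7654 symbols, 128 passed the 2-fold rule (65 higher in winter), against 61 with DESeq2, 83 with limma-voom and, with total counts, 168 (122 higher in winter). Of the 18 genes fitted, 8 changed sign in an alternative. SEC31B was at 0.0093 with the exact test, 0.036 with DESeq2, 0.0056 with RLE factors, 0.011 with upper quartile factors and 0.064 with total counts. SPCS1 was at 0.00068 with limma-voom, 0.0014 with upper quartile factors and 0.047 with total counts, and SRP9 at 0.0054 with limma-voom. With each library left out, the log2 fold change ran from -0.40 to 1.01 in SEC11C, -1.83 to 0.25 in SEC16B, -0.15 to 0.26 in SEC22C, -0.27 to 0.34 in SEC31B (not fitted without winter library B), -0.28 to 0.28 in SPCS1, -0.47 to 0.027 in SPCS3, -0.59 to 0.66 in SRP9 and -1.46 to 0.95 in TMED3. No paired analysis was possible, because the winter and summer libraries came from different slaughtered camels and nothing pairs them. The planned tests on the count files were not run, since their gene models carry no symbols. The 2 libraries per season limit every comparison, and depth limits SEC61B, COPZ2 and SEC31B.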
